A study of Homo sapiens with 6 samples.

Results

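Aminoacyl-tRNA synthetases, the enzymes that load each transfer RNA with its amino acid, were examined in OVSAYO cells, a human ovarian clear cell carcinoma line, after transfection of inhibitors of the microRNAs miR-30a and miR-30d. The members are probes whose single platform gene symbol is on a list of 35 synthetase genes, of which 19 encode cytosolic enzymes (symbols ending in 1, A or B) and 16 encode mitochondrial enzymes (symbols ending in 2). Of these genes 34 had a named probe, with 39 probes among the 48803 of the array, and 33 genes were measured above background among 12183 genes in all. In the inhibitor group, 44 nM of a hairpin inhibitor of miR-30a was combined with 22 nM of a hairpin inhibitor of miR-30d. The control group received 66 nM of a hairpin inhibitor modelled on worm microRNAs that resemble human ones little. All cells were of the same line and were harvested 48 hours after transfection with a lipid reagent, and 3 separate single-colour Illumina arrays were run per group. The labels call them biological replicates without saying what set them apart, so p-values measure only the spread between these arrays. The cells are 1 cancer line in culture, and cells given the reagent alone are not analysed here. The series' design text speaks of mimics, but the sample labels and protocol speak of inhibitors, which were followed.

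Each synthetase recognises its own transfer RNA and amino acid, and most cells have separate enzymes for the cytosol and for mitochondria, all encoded in the nucleus. Several cytosolic enzymes sit together in the multisynthetase complex. When amino acids run short, uncharged transfer RNA activates the kinase GCN2, eIF2-alpha is phosphorylated and the transcription factor ATF4 is made, which raises many cytosolic synthetase genes along with amino acid transporters and biosynthetic enzymes. The mature 5p strand of miR-30a, one of the inhibited microRNAs, is shown 5′ to 3′ from RefSeq (GRCh38.p14, chr6:71403595-71403616, minus strand), with the seed that pairs with target mRNAs (bases 2 to 8) in capitals.
miR-30a-5p: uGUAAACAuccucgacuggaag
The microRNAs themselves were not measured on these arrays, so how far the inhibitors lowered them is not known from the data.

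Between the miR-30 inhibitor and the control arrays the synthetase genes differed little, in both compartments. No member passed an adjusted p of 0.05 with limma (0 of 33, the lowest adjusted p being 0.409), nor did any of the 12183 genes (0%). At an unadjusted p under 0.05 there were 2 members, both lower with the inhibitor, FARSA and EARS2, against 10.8% of all genes in either direction and 5.65% in the lower direction. These 2 are 6.06% of the members. The order of the 2 shares depended on the processing, since the members' share was above that of all genes under 8 of 18 alternatives and below it under 10. The groups did not overlap in 4 members, or 12.1%, beside 16.3% of all genes. Cytosolic genes had 7 positive and 11 negative log2 fold changes with a median of −0.01, and mitochondrial genes had 10 positive and 5 negative with a median of 0.04, beside a median of 0.01 and 52.1% positive over all genes. These signs hold for arrays brought to a common distribution of values. When each array was only centred on its median, the median of all genes itself moved to 0.12 with 80% of genes positive, and the cytosolic and mitochondrial medians to 0.14 and 0.18, with 17 of 18 and 11 of 15 genes positive. Relative to all genes the medians then lay 0.02 and 0.06 higher. The mean over the mitochondrial genes was −0.02, opposite in sign to their median, with single values reaching −0.31.

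In the quantile-normalized values the differences were also bounded from above. The 95% intervals of the 18 cytosolic genes ran from −0.41 for FARSA to 0.30 for SARS1, so the largest rise that any single interval held was 1.23-fold. Among the 15 mitochondrial genes they ran from −0.58 for EARS2 to 0.29 for NARS2. Centred on array medians alone, the log2 fold changes themselves reached 0.27 for SARS1 and 0.27 for RARS2, so these bounds depend on the normalization. Standard errors lay between 0.07 and 0.12 on the log2 scale, and 31 of the 33 intervals held 0. Each value rests on 12 to 59 beads per array, with a median standard error between beads of 3.10% of the raw signal.

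**Figure D1:**
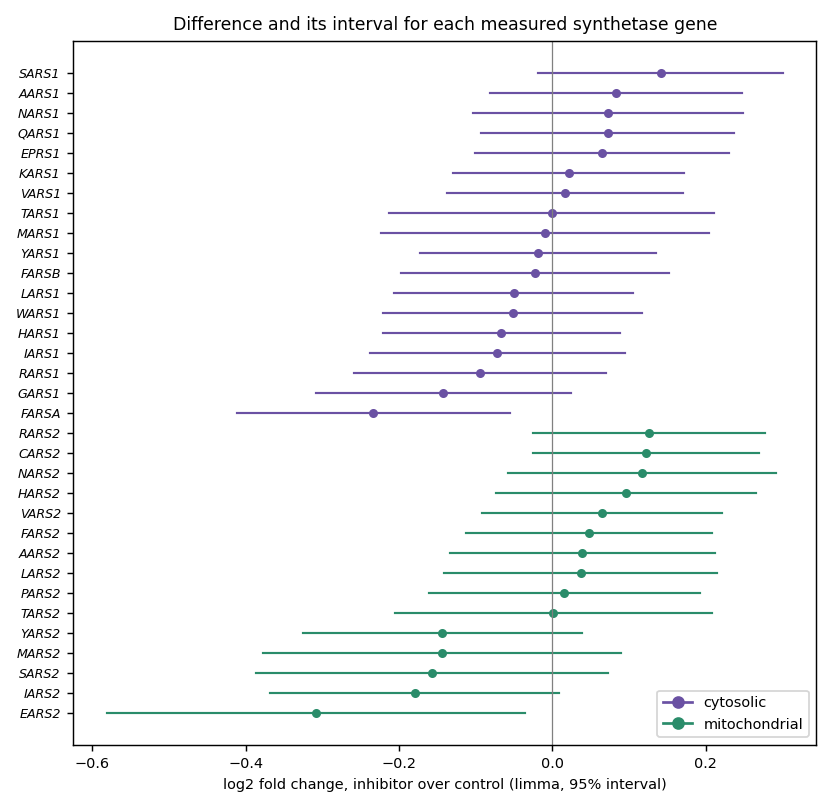
Log2 fold change (inhibitor over control) of each measured synthetase gene on the horizontal axis, with the 95% interval from limma as a bar, cytosolic genes above and mitochondrial genes below. The interval lies wholly below 0 for FARSA and EARS2 and holds 0 for the other 31 genes.

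Among the cytosolic enzymes, FARSA had the lowest p. FARSA (ILMN_1778255) encodes the catalytic alpha subunit of phenylalanyl-tRNA synthetase, and its log2 values were 7.67, 7.56 and 7.79 on the inhibitor arrays, against 7.91, 7.96 and 7.85 on the control arrays. Every inhibitor value lay below every control value, as in 7.4% of all genes in this direction. The log2 fold change was −0.23 ± 0.08 (SE), or 0.851-fold, with a limma adjusted p of 0.409. FARSB, the beta subunit of the same enzyme, had 14.41, 14.20 and 14.26 on the inhibitor arrays, against 14.27, 14.37 and 14.29 on the control arrays. Its groups overlapped throughout, and its log2 fold change was −0.02 ± 0.08 (SE). Raw signals of this FARSB probe ran from 18645 to 23426.7, up to the highest of any kept member probe. A second FARSB probe, annotated to the same transcript record, read only 112.7 to 136.3 and had a log2 fold change of 0.01. Why the 2 probes lie so far apart was not tested.

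SARS1 (ILMN_1786972), seryl-tRNA synthetase, which also charges the transfer RNA for selenocysteine, had 7.76, 7.74 and 7.66 on the inhibitor arrays, against 7.64, 7.60 and 7.51 on the control arrays. It was the only cytosolic gene with every inhibitor value above every control value, a pattern found in 8.92% of all genes. The log2 fold change was 0.14 ± 0.07 (SE, limma adjusted p 0.494). GARS1, glycyl-tRNA synthetase, which serves the cytosol and mitochondria from the same gene, had 11.02, 11.03 and 11.14 on the inhibitor arrays, against 11.20, 11.29 and 11.14 on the control arrays. Inhibitor replicate 3 met control replicate 3, and the log2 fold change of −0.14 ± 0.07 (SE) had a limma adjusted p of 0.513. KARS1, lysyl-tRNA synthetase, the other gene that serves both compartments, had a log2 fold change of 0.02.

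AARS1, alanyl-tRNA synthetase, had 11.25, 11.35 and 11.38 on the inhibitor arrays, against 11.27, 11.17 and 11.29 on the control arrays. Its groups overlapped, with a log2 fold change of 0.08 ± 0.07 (SE, limma adjusted p 0.676). RARS1, arginyl-tRNA synthetase of the multisynthetase complex, had 10.56, 10.46 and 10.63 on the inhibitor arrays, against 10.65, 10.61 and 10.69 on the control arrays, and only inhibitor replicate 3 reached into the control range. QARS1, glutaminyl-tRNA synthetase of the same complex, had 12.59, 12.58 and 12.49 on the inhibitor arrays, against 12.57, 12.43 and 12.44 on the control arrays. Control replicate 1 was nearly as high as the higher inhibitor arrays there. The log2 fold changes were −0.09 ± 0.07 (SE) for RARS1 and 0.07 ± 0.07 (SE) for QARS1.

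IARS1, isoleucyl-tRNA synthetase, was measured by 2 probes that differed in direction. The brighter probe had 10.40, 10.24 and 10.41 on the inhibitor arrays, against 10.44, 10.44 and 10.39 on the control arrays. The dimmer probe, annotated to another transcript record of IARS1, had 6.23, 5.84 and 6.34 on the inhibitor arrays, against 6.00, 6.04 and 6.05 on the control arrays. On it inhibitor replicate 2 lay below the controls and the other two inhibitor arrays above them. The log2 fold changes were −0.07 and 0.11, and neither passed with limma (adjusted p 0.724 over genes and 0.768 over probes). Of the 4 genes with over 1 kept probe, the 2 whose probes differed in direction were FARSB and IARS1, and in WARS1 and MARS2 both probes were negative.

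The remaining cytosolic genes stayed within the spread of the arrays. NARS1, the asparaginyl enzyme, and EPRS1, the bifunctional glutamyl-prolyl enzyme, had log2 fold changes of 0.07 and 0.06. HARS1 for histidine, LARS1 for leucine and WARS1 for tryptophan had −0.07, −0.05 and −0.05. VARS1 for valine had 0.02, YARS1 for tyrosine −0.02, MARS1 for methionine −0.01 and TARS1 for threonine −0.00064. None had a limma adjusted p below 0.726. CARS1, the cysteinyl enzyme, had no named probe and was not measured here.

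**Figure D2:**
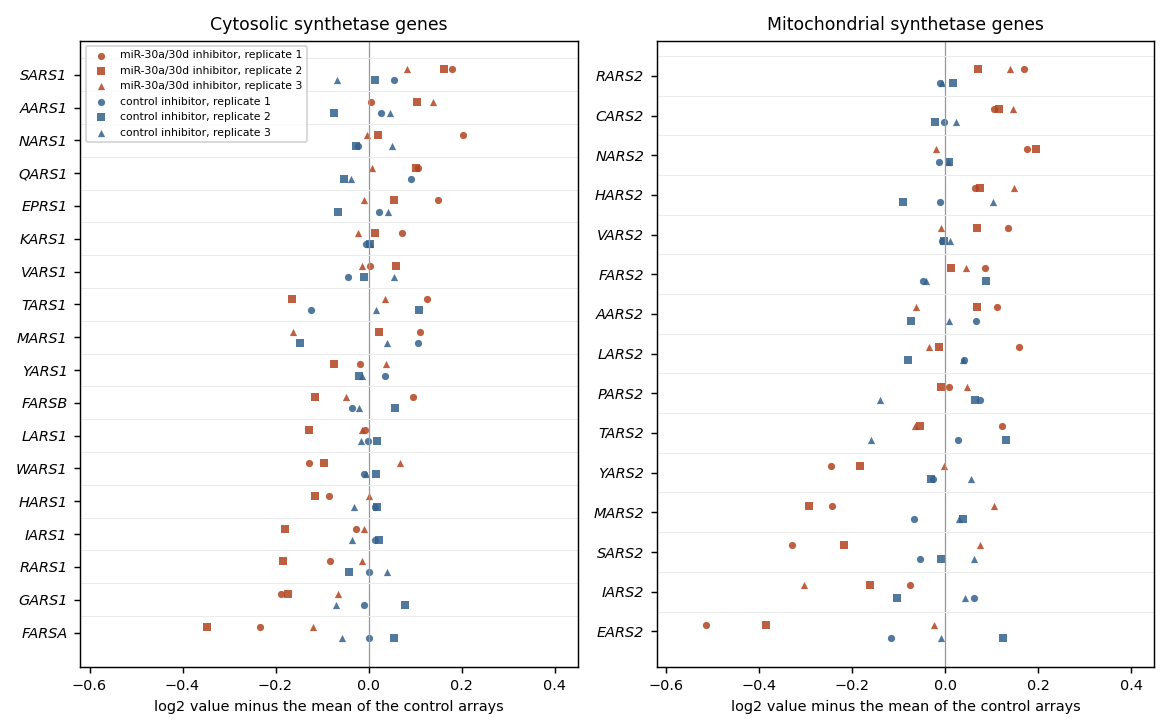
Log2 value of each measured synthetase gene on each array minus the mean of the control arrays, for cytosolic genes (left) and mitochondrial genes (right), ordered by log2 fold change. Points of the inhibitor arrays lie above those of the control arrays in each row, marker shapes give the replicate number, and the groups are apart only in FARSA, SARS1, RARS2 and CARS2.

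Grouped by complex or by structural class, the cytosolic enzymes also had medians close to 0. The 7 measured synthetases of the multisynthetase complex (EPRS1, LARS1, IARS1, MARS1, QARS1, KARS1 and RARS1) had 3 positive and 4 negative log2 fold changes, between −0.09 and 0.07. The groups overlapped in all 7, as they did in most genes, since only 16.3% of all genes had groups apart. AIMP1, a scaffold protein of the complex, was not above background. Class I enzymes, which share the Rossmann-fold catalytic domain, had 3 positive and 6 negative values with a median of −0.02. Class II enzymes, built on another fold, had 4 positive and 5 negative values with a median of −0.00064. FARSA and SARS1, the 2 cytosolic genes whose groups were apart, are of class II. They are 11.1% of the cytosolic genes, below the 16.3% of all genes with groups apart. The 2 mitochondrial genes apart, RARS2 and CARS2, are instead of class I (2 of 8, 25%), and 0 of the 7 of class II were apart. Mitochondrial class I genes had 4 positive and 4 negative values with a median of −0.05. Those of class II had 6 positive and 1 negative with a median of 0.04. Such lists are too short to set the classes apart. Centred on array medians alone, 7 of the 7 complex members, 9 of the 9 cytosolic class I and 8 of the 9 cytosolic class II enzymes were positive. Their medians were 0.14, 0.13 and 0.14, beside 0.12 for all genes. Of the mitochondrial enzymes 5 of 8 in class I and 6 of 7 in class II were then positive, with medians of 0.09 and 0.18.

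Among the mitochondrial enzymes the values spread more widely, and the widest differences were negative. EARS2 (ILMN_1758750), the mitochondrial glutamyl-tRNA synthetase, had log2 values of 7.10, 7.23 and 7.59 on the inhibitor arrays, against 7.50, 7.74 and 7.60 on the control arrays. Inhibitor replicates 1 and 2 were low, and inhibitor replicate 3 lay inside the control range. The log2 fold change was −0.31 ± 0.12 (SE), or 0.808-fold, with a limma adjusted p of 0.422. The platform annotates this probe to a non-coding transcript record of EARS2, so what it says of the coding transcript is not settled by the files. IARS2, the isoleucyl enzyme, had 10.05, 9.96 and 9.82 on the inhibitor arrays, against 10.19, 10.02 and 10.17 on the control arrays. Here inhibitor replicate 3 was the lowest array, and the log2 fold change was −0.18 ± 0.08 (SE, limma adjusted p 0.470).

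Both mitochondrial genes with groups that did not overlap were higher with the inhibitor. RARS2, the arginyl enzyme, had 9.19, 9.09 and 9.16 on the inhibitor arrays, against 9.01, 9.04 and 9.02 on the control arrays. CARS2, the cysteinyl enzyme, had 7.44, 7.46 and 7.49 on the inhibitor arrays, against 7.34, 7.32 and 7.36 on the control arrays. The replicates of CARS2 were close, at an SD of 0.02 in each group, and the gap between the groups was wider than either group's range. The log2 fold changes were 0.13 ± 0.07 (SE, limma adjusted p 0.523) for RARS2 and 0.12 ± 0.07 (SE, limma adjusted p 0.525) for CARS2.

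YARS2, the tyrosyl enzyme, had 9.52, 9.59 and 9.77 on the inhibitor arrays, against 9.74, 9.74 and 9.83 on the control arrays. SARS2, the seryl enzyme, had 8.33, 8.44 and 8.73 on the inhibitor arrays, against 8.60, 8.65 and 8.72 on the control arrays. In both genes inhibitor replicates 1 and 2 lay below all controls and inhibitor replicate 3 did not. NARS2, the asparaginyl enzyme, showed the same split in the other direction, with 8.09, 8.11 and 7.90 on the inhibitor arrays, against 7.90, 7.93 and 7.92 on the control arrays. The log2 fold changes were −0.14 ± 0.08 (SE) for YARS2, −0.16 ± 0.10 (SE) for SARS2 and 0.12 ± 0.08 (SE) for NARS2, with limma adjusted p from 0.544 to 0.595.

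Of the other mitochondrial enzymes, MARS2 for methionine had −0.14, HARS2 for histidine 0.10, VARS2 for valine 0.06, FARS2 for phenylalanine 0.05, AARS2 for alanine 0.04 and LARS2 for leucine 0.04 (log2 fold changes). PARS2 for proline had 0.02 and TARS2 for threonine 0.0011. WARS2, the tryptophanyl enzyme, was detected on 1 of 3 inhibitor arrays and on 0 of 3 control arrays, with raw signals of 46.4, 49.2 and 42.7 on the inhibitor arrays, against 50.3, 50.4 and 47.3 on the control arrays, and was not tested.

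HARS1 and HARS2 are encoded head to head, and their promoter windows in RefSeq share 184 bases. The 84 bases between the start sites lie at chr5:140691371-140691454 (GRCh38.p14, plus strand, with HARS1 read leftwards and HARS2 rightwards) and are shown because a single stretch serves a cytosolic and a mitochondrial gene.
HARS1-HARS2: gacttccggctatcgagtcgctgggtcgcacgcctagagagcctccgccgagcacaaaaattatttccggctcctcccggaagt
HARS1 had 9.54, 9.51 and 9.63 on the inhibitor arrays, against 9.64, 9.65 and 9.60 on the control arrays. HARS2 had 10.45, 10.46 and 10.53 on the inhibitor arrays, against 10.37, 10.29 and 10.49 on the control arrays. The log2 fold changes of −0.07 ± 0.07 (SE) and 0.10 ± 0.08 (SE) were opposite in sign, each within the spread of its arrays, and the difference between them was not tested.

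Arrays differed within the groups. Over all kept probes principal component 1 held 42.1% of the variance, with inhibitor replicates 1, 2 and 3 at 17.5, 13.2 and −9.11 and control replicates 1, 2 and 3 at −4.12, −15.7 and −1.67. Inhibitor replicate 3 was also the inhibitor array nearest to the control mean in 12 of 18 cytosolic genes, beside 4 for replicate 1 and 2 for replicate 2. In mitochondrial genes it was nearest in 7 of 15, beside 4 for replicate 1 and 4 for replicate 2. The same count over all genes was not made. Without inhibitor replicate 3, 8 members (24.2%) were at an unadjusted p under 0.05, beside 22.8% of all genes, and 0 passed the adjusted threshold. The lowest adjusted p among them was 0.0650 for EARS2, whose log2 fold change was then −0.45, while FARSA had −0.29, SARS2 −0.27, MARS2 −0.27, YARS2 −0.21 and GARS1 −0.18. The other two of the 8 were higher, SARS1 at 0.17 and NARS2 at 0.19. The count was 0 without inhibitor replicate 2, beside 6.84% of all genes, and 1 without control replicate 2 or control replicate 3, beside 6.97% and 9.83%. Without both inhibitor replicate 3 and control replicate 2, 6 members (18.2%) were at an unadjusted p under 0.05, beside 18.7% of all genes, with EARS2 at −0.39 and SARS2 at −0.28. The part of this difference between arrays in the members' values was not tested further. Mean raw signals ran from 240.3 to 258.5 on the inhibitor arrays and from 222.6 to 239.9 on the control arrays, and 43.4% to 45.2% of probes were detected on each array. All 5 epithelial markers were measured, with raw signals up to 12706.6. The fibroblast markers DCN and LUM and the endothelial marker PECAM1 had raw signals of 47.8 to 79.7, and the other 4 fibroblast and 3 endothelial markers were not above background. Of the 5 leukocyte markers CD68, CD14 and CD79A were measured, with raw signals up to 423.3.

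Averaged over genes, the cytosolic set lay at 0.016, −0.058 and −0.006 on inhibitor replicates 1, 2 and 3 relative to the control mean, against 0.006, −0.003 and −0.003 on the control arrays (log2). The mitochondrial set lay at −0.018, −0.047 and 0.012 on the inhibitor arrays, against −0.006, 0.004 and 0.002 on the control arrays. In both sets the inhibitor arrays lay on either side of the controls, with inhibitor replicate 2 the lowest.

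The element that ATF4 binds in synthetase promoters was looked up in the reference. ATF4 with a C/EBP partner recognises a composite element whose core was searched as TGATGNAA on both strands, in RefSeq windows from 250 bases before to 50 after each start (GRCh38.p14). It was found in 7 of the 16 cytosolic synthetase genes with a window (43.8%), in 1 of 14 mitochondrial ones (7.14%) and in 4.46% of the 27305 genes with a window. Of 10 cytosolic synthetases that are widely described as ATF4 targets and had a window, 7 held it, and of the 6 other cytosolic ones 0 did. The windows of LARS1, VARS1, YARS1, AARS2 and VARS2 were not used here. Each match is shown on the strand of its gene with 11 bases on each side and the match in capitals, because these are the members whose windows carry the letters.
AARS1 (chr16:70289675-70289704, minus strand): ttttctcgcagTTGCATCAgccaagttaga
CARS1 (chr11:3057407-3057436, minus strand): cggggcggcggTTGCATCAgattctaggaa
GARS1 (chr7:30594834-30594863, plus strand): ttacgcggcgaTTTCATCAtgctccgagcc
IARS1 (chr9:92293692-92293721, minus strand): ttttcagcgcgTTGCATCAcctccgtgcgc
MARS1 (chr12:57488053-57488082, plus strand): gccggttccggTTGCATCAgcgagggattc
NARS1 (chr18:57621804-57621833, minus strand): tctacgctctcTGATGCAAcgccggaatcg
TARS1 (chr5:33440956-33440985, plus strand): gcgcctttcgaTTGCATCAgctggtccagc
YARS2 (chr12:32756076-32756105, minus strand): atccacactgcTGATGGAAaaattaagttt
A match is a description of the window and shows no binding in these cells.

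The synthetases with this element had log2 fold changes of both signs. AARS1 and NARS1 had 0.08 and 0.07, GARS1, IARS1 and MARS1 had −0.14, −0.07 and −0.01, TARS1 had −0.00064 and YARS2 had −0.14. Over the 12 measured synthetases described as ATF4 targets, 5 were positive and 7 negative with a median of −0.01. Of these 12, 0 had an unadjusted p under 0.05 with limma, beside 10.8% of all genes. Their groups were apart in 1 gene, SARS1 (8.33%), beside 16.3% of all genes. With 12 genes such counts are too small to set the targets apart from all genes. In the 6 other cytosolic enzymes the median was −0.04, with 2 positive and 4 negative. Centred on array medians alone, 12 of the 12 and 5 of the 6 were positive, with medians of 0.14 and 0.08 beside 0.12 for all genes.

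Other genes of the amino acid response, many of them also ATF4 targets, lay higher. Of 18 such genes 17 had a positive log2 fold change, with a median of 0.15, and 7 had an unadjusted p under 0.05 as higher, or 38.9%, beside 5.17% of all genes. None of them passed the adjusted threshold. The median was 0.10 with probe means and 0.10 without inhibitor replicate 1. Centred on array medians alone it was 0.30, beside 0.12 for all genes. From 16 to 18 of these genes were positive under the alternatives. STC2, a secreted glycoprotein, had 0.37 ± 0.08 (SE), with 5.62, 5.75 and 5.74 on the inhibitor arrays, against 5.38, 5.23 and 5.41 on the control arrays. Raw signals of STC2 were low, at 66.1 to 81.7, though it was detected on 3 of 3 arrays in each group. Those of WARS2, which was not above background, were 42.7 to 50.4. ASNS, which makes asparagine, had 0.26 ± 0.08 (SE), with 11.56, 11.52 and 11.53 on the inhibitor arrays, against 11.38, 11.17 and 11.27 on the control arrays. SESN2, a stress-induced sensor that restrains mTORC1, had 0.27 ± 0.08 (SE), with limma adjusted p of 0.384 for all 3 genes. ATF4 itself had 0.16 ± 0.08 (SE, limma adjusted p 0.510). Every inhibitor value lay above every control value in 8 of the 18 genes (44.4%), STC2, ASNS and SESN2 among them, beside 8.92% of all genes. This list largely repeats genes already seen to be higher in these arrays, so its counts and array means are no independent evidence. On the same arrays the mean of this list was 0.18, 0.15 and 0.12 on the inhibitor arrays, against 0.01, −0.05 and 0.04 on the control arrays, and whether the lists differ was not tested.

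**Figure D3:**
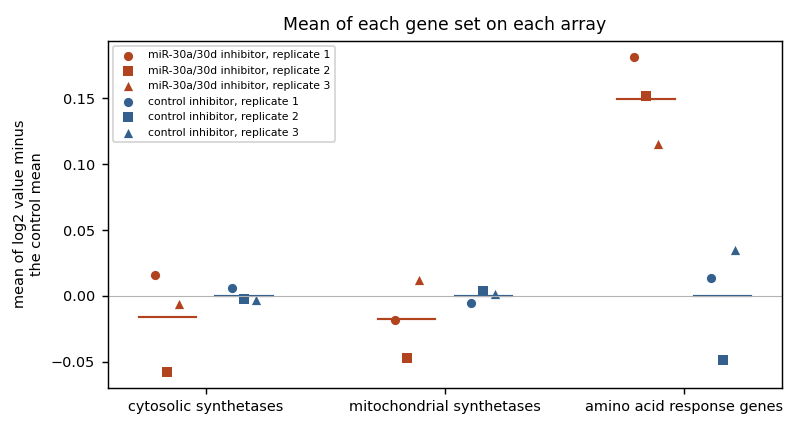
Deviation from the control mean (log2), averaged over genes, on each array for cytosolic synthetases (18 genes), mitochondrial synthetases (15 genes) and amino acid response genes (18 genes), with inhibitor arrays left of control arrays and a line at each group's mean. The inhibitor arrays straddle 0 for both synthetase sets and lie between 0.12 and 0.18 for the amino acid response genes. The amino acid response list largely repeats genes already seen to be higher in these arrays.

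The other genes of charging and elongation also differed little. Of 8 measured genes that charge, modify or proofread transfer RNA outside the list of synthetases, 5 were positive and 3 negative, with a median of 0.02. DTD2, which removes wrongly attached residues, had 0.16 ± 0.08 (SE). SEPSECS and PSTK, which turn serine on its transfer RNA into selenocysteine, had 0.14 and 0.11. Their limma adjusted p values lay from 0.491 to 0.595. Of the 5 cytosolic elongation factors 1 was positive and 4 negative, with EEF1D, a subunit of the exchange factor that binds valyl-tRNA synthetase, at −0.12 ± 0.07 (SE), EEF2 at 0.11 and EEF1G at −0.05. All 8 measured mitochondrial translation factors were negative, with a median of −0.04, while 52.1% of all genes were positive. With the deposited series table, array weights or probe means 7 of the 8 were negative. The same count held without control replicate 3 and without any 1 of the inhibitor replicates. Without control replicate 2, alone or together with inhibitor replicate 3, 6 were negative. MTIF3, a mitochondrial initiation factor, had −0.23 ± 0.09 (SE, limma adjusted p 0.409), with 7.39, 7.54 and 7.65 on the inhibitor arrays, against 7.75, 7.85 and 7.68 on the control arrays. All its inhibitor values lay below all its control values, as in 7.4% of all genes. The release factors MTRF1 and MTRF1L had −0.12 and −0.08. When arrays were only centred on their medians, 6 of the 8 translation factors and 5 of the 5 elongation factors turned positive, with list medians of 0.10 and 0.11 beside 0.12 for all genes.

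**Figure D4:**
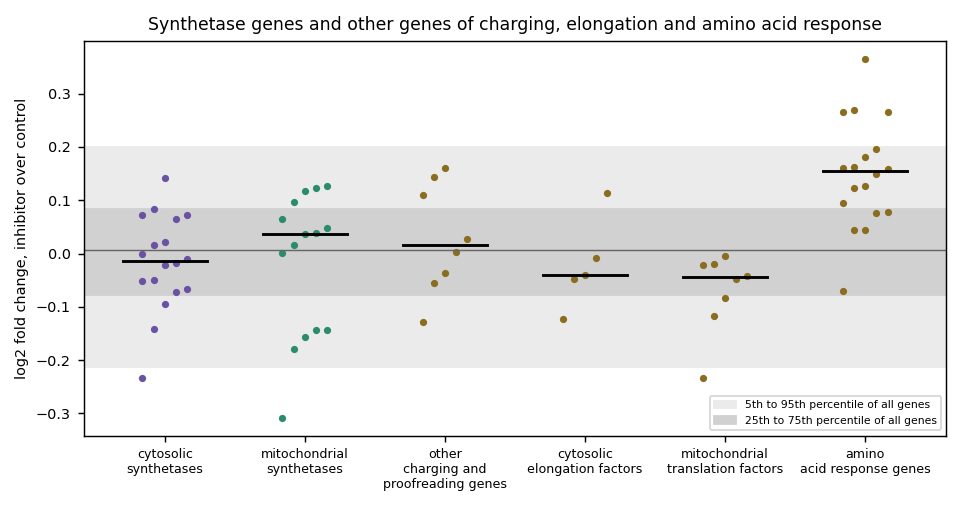
Log2 fold change (inhibitor over control) of each measured gene as a point, by list, with a bar at the list's median. The shaded bands give the 5th to 95th and the 25th to 75th percentiles of all 12183 genes, and the grey line is their median of 0.01. FARSA and EARS2 lie below the wider band, and no synthetase lies above it.

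**Figure D5:**
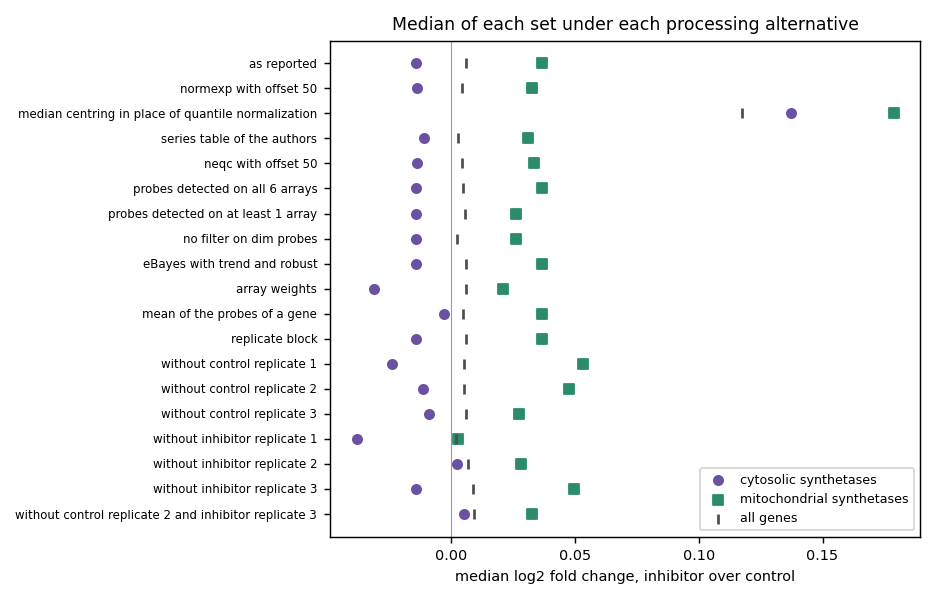
Median log2 fold change of cytosolic synthetases, mitochondrial synthetases and all genes under each processing alternative. The cytosolic median lies between −0.04 and 0.14 and the mitochondrial median between 0.00303 and 0.18, and all 3 medians are furthest to the right under median centring.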

How the data were processed

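Total RNA was hybridised to 6 Illumina arrays. Per the file headers, the authors deposited for each probe a mean bead signal, an intensity on a linear scale with no background subtraction, a detection score given as a fraction from 0 to 1, the number of beads (another measure) and their standard deviation as an intensity. BeadStudio made these tables, per the submitters' processing notes. A second deposited table holds each probe's intensity matched to the values of control replicate 1 by rank, and how this was done is not stated in what was used here. The tables were joined by each probe's rank on all 6 arrays, unique for all 48803 probes. Symbols came from the platform annotation, in which 28098 probes had 1 symbol, 13 several and 20692 none here. All 34 member symbols matched RefSeq (GRCh38.p14) by Entrez identifier. Signals were corrected and quantile-normalized with limma's neqc (limma 3.58.1, R 4.3.3, offset 16). Probes with a detection score over 0.95 on at least 3 of 6 arrays were kept (21928), and the brightest kept probe stood for each gene (12183 genes). Differences were tested two-sided with lmFit and eBayes and adjusted by the Benjamini-Hochberg method over all genes at 0.05. Precision is set by the number of arrays, since such arrays have no read depth. The fit was tested on simulated data. The members and lists were chosen with earlier results of these data known. Array values are given for the 7 genes of each compartment with the lowest p and for genes whose probes differ, with HARS1 and HARS2, WARS2 and some genes of other lists added after their values were seen. Alternatives covered background, normalization, the deposited series table, filters, offset, spread, array weights, probe means, the replicate block and left-out arrays, for which values were not normalized again. Replicate numbers did not pair the arrays, with correlations of deviations of 0.0890, −0.258 and −0.213 for numbers 1, 2 and 3. Figures were drawn with matplotlib 3.10.9.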

Additional observations from a re-analysis of the deposited data

How the results depend on the processing

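The members past an adjusted p of 0.05 stayed at 0 under all 18 alternatives, and the lowest adjusted p of a member under any of them was 0.0650. The genes of the whole array past that threshold stayed at 0 except with 1 array left out, where they ran from 0 to 3, with 3 without inhibitor replicate 3. The count of members at an unadjusted p under 0.05, which was 2, was 6 with normexp at an offset of 50 (beside 11.5% of all genes) and 5 with neqc at that offset (11.6%), 6 with no filter (9.78%), 9 with median centring (23.2%) and with array weights (19.9%), 5 with the series table (11.4%), 4 with a trended robust spread (11.4%), and 6 without inhibitor replicate 3 and control replicate 2 (18.7%). Under median centring the calls were 4 cytosolic and 5 mitochondrial genes, all higher with the inhibitor, and 0 were lower. FARSA and EARS2, the 2 lower members of the reported count, were not among them, at log2 fold changes of −0.10 and −0.17. With 1 array left out the count ran from 0 to 8, beside 6.21% to 22.8% of all genes. With the replicate block it was 2 (7.96%), no call changed, and the medians were −0.01 and 0.04 as before. Median centring moved the cytosolic median to 0.14, the mitochondrial median to 0.18 and the median of all genes to 0.12. With 1 array left out the cytosolic median ran from −0.04 to 0.0024 and the mitochondrial median from 0.00303 to 0.0532. The direction of 16 of the 33 members changed under at least 1 alternative, in 6 of them under median centring alone. The cause was not tested. Probes near background limit the measurement, and 2 of the 39 member probes were not above it.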

Other observations

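Cytosolic and mitochondrial enzymes for the same amino acid were set side by side. Of 11 such pairs with 1 gene in each compartment and both measured, 6 had log2 fold changes of the same sign and 5 of opposite signs. Centred on array medians alone, which raised most genes, 8 had the same sign and 3 opposite signs, so the signs below hold for the quantile-normalized values. Among the 11 the widest gap was in the seryl pair, with SARS1 at 0.14 and SARS2 at −0.16. The arginyl pair ran the other way, with RARS1 at −0.09 and RARS2 at 0.13. On the brightest probe of each gene, both genes of the isoleucyl, methionyl and tyrosyl pairs were negative. The mitochondrial gene had the lower value, with IARS2 at −0.18, MARS2 at −0.14 and YARS2 at −0.14. This did not hold on the dimmer probes, where IARS1 had 0.11 and MARS2 had −0.0089, beside MARS1 at −0.0098. The alanyl, asparaginyl and valyl pairs were positive in both genes, at 0.08 and 0.04 for AARS1 and AARS2, 0.07 and 0.12 for NARS1 and NARS2, and 0.02 and 0.06 for VARS1 and VARS2. EPRS1, which charges glutamate and proline in the cytosol, had 0.06, beside EARS2 at −0.31 and PARS2 at 0.02. The subunits FARSA and FARSB of the cytosolic phenylalanyl enzyme had −0.23 and −0.02, beside the mitochondrial FARS2 at 0.05. None of these genes passed the adjusted threshold with limma, and the differences within pairs were not tested.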
